A study of Rattus norvegicus with 4 samples.

Results

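Short interspersed elements (SINEs) were named at the centre of 11853 of the 129550 H3K27me3 peaks of rat sciatic nerve (9.15%, 95% Wilson interval 8.99 to 9.31%). Members were found by the authors' annotation of each peak's centre: a peak belongs to the set where the repeat class given there is SINE, and it was then placed in a family and under a repeat name as the annotation writes them. The 4 peaks with the uncertain class SINE? were left out. The peaks come from the nerve of male Sprague Dawley rats at postnatal day 42, taken from the side that had a sham operation, in which the skin was opened and the nerve left whole, 1 day after the opposite nerve was cut. The series has 2 libraries of chromatin precipitated with an antibody to H3K27me3 and 2 input libraries, and the deposited list combines the H3K27me3 libraries without saying how. No sample of the cut nerve and no cell sorting enters these values, so Schwann cells, fibroblasts, perineurial, vascular and immune cells of the nerve are measured together.

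H3K27me3 is written by the Polycomb complex PRC2 and marks genes and domains kept silent, most strongly at CpG-rich promoters of developmental regulators. SINEs are short, non-coding retroelements that RNA polymerase III transcribes and that the enzymes of LINE elements copy into new sites. In rodents the B1 elements, which the annotation places in the family Alu, derive from 7SL RNA, B2 and ID elements derive from tRNA genes, ID elements being close to the neuronal BC1 RNA, and B4 elements join an ID-like with a B1-like part. MIR elements are much older and are shared by mammals. In somatic cells, SINEs are known mainly for DNA methylation and H3K9 methylation.

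Each peak has 1 score and 1 width for the combined libraries, so there is no replicate error, and no test over samples could be made. Wilson intervals treat peaks as independent and cover counting error only. The score was assigned by the authors and serves here to describe and rank peaks of this list alone. Scores under 10 lay on a grid with a step of 0.206, and the median of SINE-centred peaks (4.33) is 21 steps. If a step is 1 sequenced tag, which no source states, counting error alone spans scores of 2.68 to 6.62 around that median. How much of the rat genome each repeat family fills was not computed, so no share below is an enrichment.

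The few SINE-centred peaks that cover a transcription start site (TSS) are those that meet a gene's start directly, so the promoters of 4 of them are shown. Dhh and Npas1 have the highest-scoring such peaks among genes with a promoter sequence in the RefSeq table used here, and Dll3 and Pitx3 are the pair centred in ID elements. Each sequence runs 5' to 3' on the gene's strand over 300 bases around the start of the RefSeq gene in GRCr8, a newer assembly than the rn5 of the peaks, and whether both starts are the same was not tested. Capitals mark the dinucleotide CG, which reads the same on both strands.
Dhh: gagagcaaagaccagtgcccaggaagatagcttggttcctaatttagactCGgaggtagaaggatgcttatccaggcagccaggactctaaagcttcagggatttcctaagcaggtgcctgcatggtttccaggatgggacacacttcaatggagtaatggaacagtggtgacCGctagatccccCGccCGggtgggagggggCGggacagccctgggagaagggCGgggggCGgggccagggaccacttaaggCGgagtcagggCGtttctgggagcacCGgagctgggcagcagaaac
Npas1: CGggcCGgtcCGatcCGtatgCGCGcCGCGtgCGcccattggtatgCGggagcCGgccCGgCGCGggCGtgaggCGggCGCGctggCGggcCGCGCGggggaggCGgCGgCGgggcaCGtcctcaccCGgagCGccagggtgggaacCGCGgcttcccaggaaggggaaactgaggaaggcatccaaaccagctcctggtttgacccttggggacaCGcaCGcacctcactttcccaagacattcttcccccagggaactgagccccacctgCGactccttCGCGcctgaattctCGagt
Dll3: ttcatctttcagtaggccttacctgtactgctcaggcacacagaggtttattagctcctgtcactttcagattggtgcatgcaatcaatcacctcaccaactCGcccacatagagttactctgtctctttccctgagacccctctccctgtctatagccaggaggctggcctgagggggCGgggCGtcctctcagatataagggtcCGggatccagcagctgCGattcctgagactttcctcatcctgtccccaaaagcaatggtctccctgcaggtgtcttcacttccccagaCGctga
Pitx3: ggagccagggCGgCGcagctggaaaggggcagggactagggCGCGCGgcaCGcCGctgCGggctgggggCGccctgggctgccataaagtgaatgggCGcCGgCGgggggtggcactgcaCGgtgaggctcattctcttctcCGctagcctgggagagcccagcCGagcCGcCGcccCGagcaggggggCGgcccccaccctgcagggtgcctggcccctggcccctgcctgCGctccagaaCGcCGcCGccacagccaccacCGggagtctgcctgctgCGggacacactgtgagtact
The Npas1 promoter (GRCr8 chr1:86314844-86315143, minus strand) held 36 CG dinucleotides, more than 94.2% of the 27457 promoters in the table, and that of Pitx3 (chr1:254955276-254955575, minus strand) held 25, more than 82.1%. The Dhh promoter (chr7:131935303-131935602, minus strand) held 10 and that of Dll3 (chr1:92697267-92697566, minus strand) held 6, close to the median of 7 over all promoters (quartiles 3 and 20). CG was present in 94.8% of promoters of this length. Of the 28 genes whose TSS such a peak contains, 17 had a promoter in the table, and 14 of these held more CG than that median and 3 fewer. With so many unmatched, these counts describe the matched genes alone, and no test against all promoters was made. The sequences of the elements themselves were not used here.

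Rodent families led, and B4, B1, B2, MIR and ID together made up all but 25 members. B4 had 3872 peaks (32.7% of SINE-centred peaks, interval 31.8 to 33.5%), B1 had 3340 (28.2%, 27.4 to 29.0%), B2 had 2879 (24.3%, 23.5 to 25.1%), the ancient MIR had 1279 (10.8%, 10.2 to 11.4%) and ID had 458 (3.86%, 3.53 to 4.23%). Deu elements had 13 peaks and SINEs of the family tRNA 12. The 42 repeat names were unequal in number, and the 15 most frequent held 9771 peaks (82.4%). The most frequent name was B3, a member of the B2 family, with 1711 peaks. It was followed by the B4 members ID_B1 with 1177, B4A with 1062 and RSINE1 with 1022, which with B3 came to 41.9% of all SINE-centred peaks. In the B1 family the most frequent name was the older PB1D10 with 548 peaks, ahead of the rat element B1_Rn with 393.

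**Figure D1:**
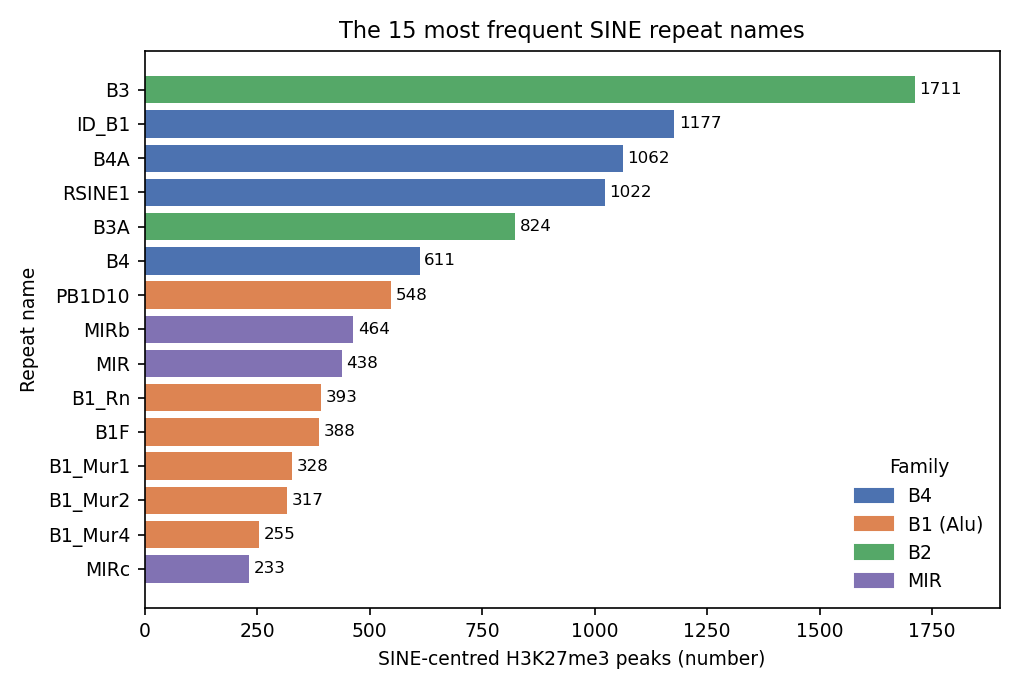
Number of SINE-centred H3K27me3 peaks (horizontal axis) for the 15 most frequent repeat names, with the colour giving the family. B3 of the B2 family leads with 1711 peaks, and 3 names of the B4 family follow with 1022 to 1177.

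Most SINE-centred peaks were short and low, and in this they were close to peaks centred in other retroelements. Their median width was 187 bp (quartiles 150 and 336 bp), the same as for LINE-centred (quartiles 150 and 362 bp) and LTR-centred peaks (150 and 339 bp), against 192 bp (150 and 435 bp) for all peaks outside SINEs. The smallest width in the list, 150 bp, was that of 5864 members (49.5%, interval 48.6 to 50.4%), against 49.1% of LINE-centred, 48.5% of LTR-centred and 44.8% of all peaks outside SINEs. The median score was 4.33 (quartiles 3.30 and 8.25), against 4.13 (3.30 and 8.04) for LINE-centred, 4.33 (3.30 and 8.04) for LTR-centred and 4.54 (3.30 and 10.1) for all peaks outside SINEs. A score in the top 25% of the list (9.90 or more) was held by 2510 SINE-centred peaks (21.2%, 20.5 to 21.9%), where the whole list has 25.1%. Width and score went together among the 11853 members, with a Spearman rho of 0.889, and over all peaks, with 0.918. Peaks of 1 list are no replicates of each other.

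Broad SINE-centred peaks were few but present. Of the members, 960 (8.10%, interval 7.62 to 8.60%) were at least 1000 bp wide, against 7.13% of LINE-centred and 6.57% of LTR-centred peaks and 10.9% of the whole list. At least 5000 bp was reached by 64 members (0.540%, 0.423 to 0.689%), against 0.317% (0.227 to 0.443%) of LINE-centred and 0.256% (0.179 to 0.365%) of LTR-centred peaks and 1.01% of the whole list. An element of this class is much shorter than such a domain, so in a broad peak the name says only what lies at its midpoint. Among intronic and intergenic peaks, the only position classes that carry repeat names in the file, the share centred in a SINE was 10.3% (10.0 to 10.5%) at the smallest width, 8.42% (8.10 to 8.76%) over 300 and up to 1000 bp, 7.57% (7.11 to 8.06%) over 1000 and up to 5000 bp and 3.70% (2.08 to 6.51%, 11 of 297 peaks) over 10000 bp. LINEs stood at 9.20% (8.97 to 9.44%) in the narrowest class and at 1.01% (3 peaks) in the widest, and LTR elements at 9.97% and 0.337% (1 peak). Over 150 and up to 300 bp the shares were 9.88% for SINEs, 8.53% for LINEs and 10.1% for LTR elements. Over 300 and up to 1000 bp the SINE share was the lowest, against 8.55% (8.23 to 8.89%) for LINEs and 9.10% (8.77 to 9.45%) for LTR elements. All 3 classes were thus less frequent at the centres of broad peaks, and over 1000 and up to 5000 bp the SINE interval stood above those of LINEs (6.17%, 5.75 to 6.62%) and LTR elements (6.26%, 5.83 to 6.71%). Over 5000 and up to 10000 bp the SINE share was 6.46% (4.97 to 8.35%), against 3.78% (2.67 to 5.31%) for LINEs and 3.53% (2.47 to 5.03%) for LTR elements, with intervals that overlap.

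**Figure D2:**
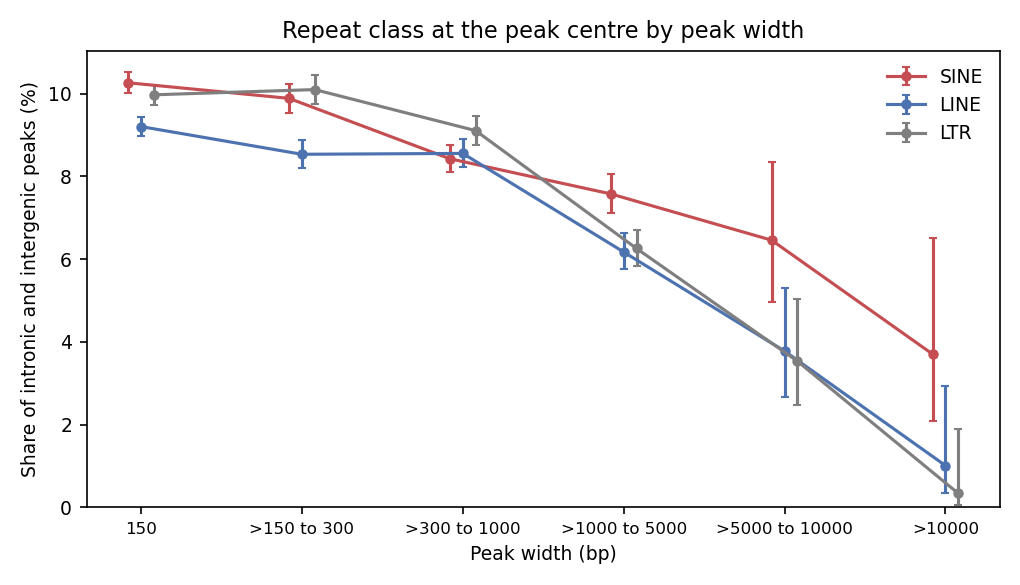
Share of intronic and intergenic peaks (vertical axis, %) whose centre lies in a SINE, LINE or LTR element, by peak width in bp (horizontal axis), with points for shares and bars for 95% Wilson intervals. The SINE share is 10.3% at 150 bp and 3.70% over 10000 bp, and stands above the LINE and LTR shares in every class over 1000 bp, where the intervals of SINEs and LINEs overlap over 5000 bp, and those of SINEs and LTR elements overlap over 5000 and up to 10000 bp.

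Among the 5 large families, ID had the highest median score and the others lay close together. Median scores were 4.13 for B4 (quartiles 3.30 and 7.63), 4.33 for B1 (3.30 and 8.04), 4.33 for B2 (3.30 and 7.94), 4.54 for MIR (3.30 and 9.08) and 5.36 for ID (3.51 and 11.6). The first 4 of these medians lie within 2 grid steps of one another. ID-centred peaks also had the widest median among these 5, 225 bp (quartiles 150 and 548 bp), against 192 bp for MIR and 150 bp for B4, B1 and B2. Of the ID-centred peaks 33.0% (28.8 to 37.4%) were in the top 25% of scores, against 23.5% (21.3 to 25.9%) for MIR, 21.1% for B1, 20.1% for B2 and 19.7% for B4. The 13 Deu-centred peaks, too few to rank, had a median score of 12 (4.74 and 35.3) and a median width of 471 bp. The ID share of SINE-centred peaks was 2.80% among peaks of 150 bp, 5.44% over 300 and up to 1000 bp and 6.47% over 1000 and up to 5000 bp.

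Within the ID and B2 families the values differed by subfamily, and the highest lay with names that carry Rn or Rat. ID_Rn1 had 63 peaks with a median score of 12.2 (quartiles 9.48 and 39.8) and a median width of 612 bp, and ID_Rn2 had 75 with 10.5 (4.84 and 24.7) and 521 bp. The other 4 ID names, ID4_, ID4, ID and ID2, had 320 peaks with a median score of 4.33 (3.30 and 7.43) and a median width of 188.5 bp. Only 1.59% of ID_Rn1 peaks had the smallest width, against 46.6% of peaks under the other ID names. BC1_Rn, the rat BC1 RNA element, which the annotation classes as scRNA and not as SINE, had 67 peaks with a median score of 7.43 and a median width of 410 bp.

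The B2 family had a like split, and B1 did not. B2_Rat2 (63 peaks), B2_Rat1 (40 peaks) and B2_Rat3 (59 peaks) had median scores of 8.66, 8.56 and 8.46 and median widths of 448, 423.5 and 496 bp. B2_Rat4 lay between, with 141 peaks, a median score of 5.78 and a median width of 227 bp. The B2 names with Rn had few peaks and varied. Their median scores were 5.88 for B2_Rn2 (26 peaks), 15.35 for B2_Rn1 (8), 3.92 for B2_Rn (5) and 22.8 for B2_RnY (2). The older names B3 and B3A together had 2535 peaks with a median score of 4.33 and a median width of 150 bp. B1_Rn, the rat element of the B1 family, had a median score of 4.13 and a median width of 150 bp, no different from the 13 other B1 names together (4.33 and 150 bp) by more than 1 grid step. Of the 32 names with at least 30 peaks, 26 had a median score between 4 and 5, and the other 6 were ID_Rn1, ID_Rn2 and B2_Rat1 to B2_Rat4.

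Of these, ID_Rn1, ID_Rn2 and B2_Rat1 to B2_Rat3 stood apart in width, and B2_Rat4 is counted below with the other SINE-centred peaks. In the width classes up to 1000 bp their median scores were no higher than those of other SINE-centred peaks. Over 1000 and up to 5000 bp their medians were higher. In the wider classes the order varied, on few peaks. Over 5000 and up to 10000 bp, 3 ID_Rn1 and ID_Rn2 peaks had a median of 615.9. There, 2 peaks of B2_Rat1 to B2_Rat3 had 224.65 and 48 others 242.9. Over 10000 bp the values were 535.5 (1 peak), 994 (1 peak) and, for 9 others, 1176. Of the 138 ID_Rn1 and ID_Rn2 peaks, 15 (10.9%) were of the smallest width and 73 were over 300 and up to 1000 bp wide, and in that class their median score was 10.5, that of B2_Rat1 to B2_Rat3 10.7 and that of all other SINE-centred peaks 12. Over 1000 and up to 5000 bp the medians were 69.7 for the 37 ID_Rn1 and ID_Rn2 peaks, 51.4 for the 23 of B2_Rat1 to B2_Rat3 and 46.0 for the 836 others. Among peaks of at least 1000 bp the median score per kb was 32.3 for ID_Rn1 and ID_Rn2 and 28.7 for the other ID names. Taken singly, ID_Rn1 had 34.6 and ID_Rn2 29.97, against 29.96 for the whole list. B2_Rat1, B2_Rat2 and B2_Rat3 had 32.8, 33.5 and 28.6, on 5, 9 and 12 peaks. All B2 names with Rn or Rat together had 28.3, and the other B2 names 28.5. MIR3 had 34.3 on 16 peaks, so this measure did not set the singled-out names apart from all others. ID_Rn1 and ID_Rn2 peaks lay on all 21 chromosomes, and 87.0% of them had another peak within 1000 bp, against 62.8% under the other ID names. How reads that align to several copies were treated is not stated, and its part in these values was not tested. The subfamilies were singled out after their values were seen.

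**Figure D3:**
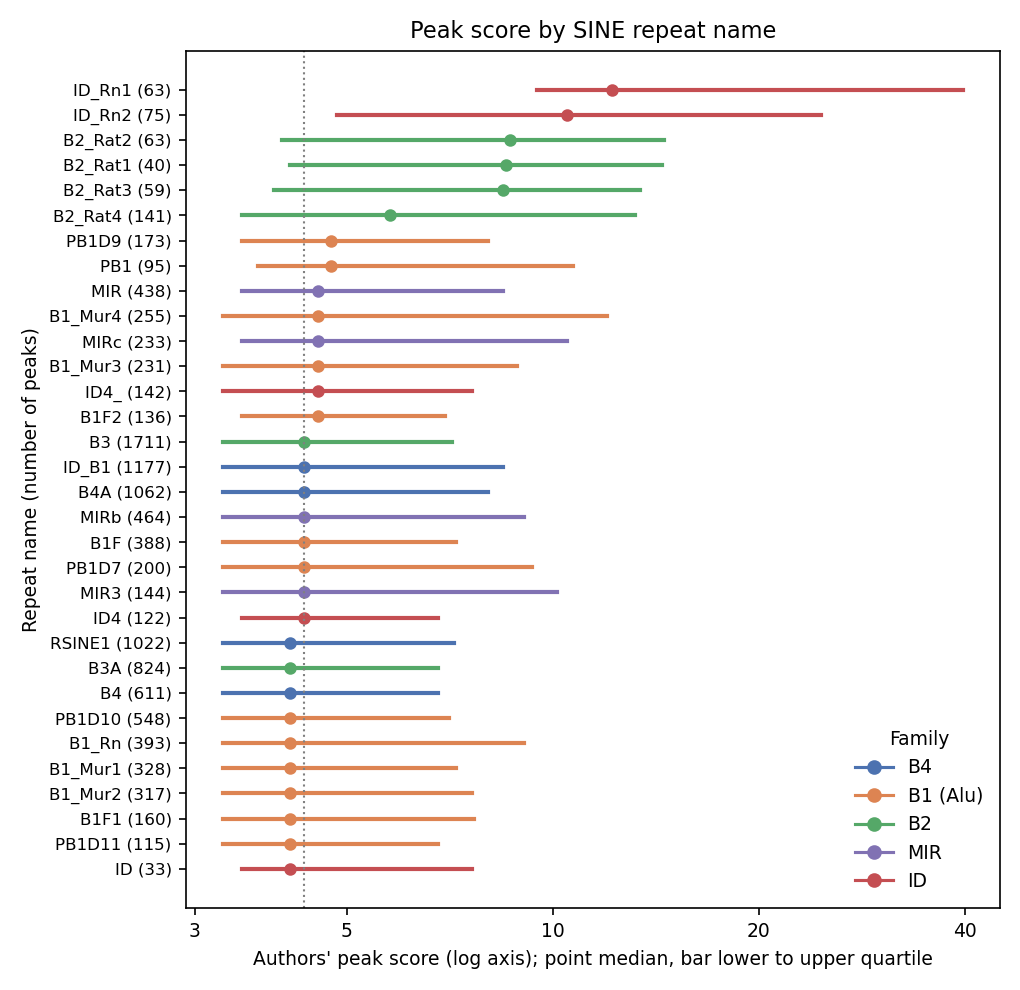
The authors' peak score (horizontal axis, log scale) for the 32 SINE repeat names with at least 30 peaks, with points for medians, bars from the lower to the upper quartile, colours for families and a dotted line at the median of all SINE-centred peaks (4.33). ID_Rn1 and ID_Rn2 stand at 12.2 and 10.5 and B2_Rat1 to B2_Rat4 at 5.78 to 8.66, with the other 26 names between 4 and 5.

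SINE-centred peaks lay nearer to genes than LINE- and LTR-centred peaks. The nearest TSS was a median of 26926 bp away (quartiles 9631 and 70564 bp), against 39176 bp for LINE-centred, 31737 bp for LTR-centred and 41049 bp for intronic and intergenic peaks with no repeat at the centre. ID and B1 were closest, with medians of 22554 and 23069 bp, then B2 with 25906, B4 with 29970 and MIR with 35189 bp. Introns held 2642 members (22.3%, interval 21.5 to 23.0%), against 15.1% (14.4 to 15.8%) of LINE-centred and 12.8% (12.2 to 13.4%) of LTR-centred peaks, and the other 9211 were intergenic. Over all peaks introns held 21.8%, and over peaks in introns or between genes 22.6%, so the share of the members is close to that of the list. Among the 5 large families MIR was the most intronic with 30.2% (27.7 to 32.8%), and B2 the least with 19.3% (17.9 to 20.8%). Of the intronic members 38.7% (36.9 to 40.6%) lay in a first intron, against 38.6% of intronic peaks outside SINEs.

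The share of peaks centred in a SINE depended on the distance from genes. Among intronic and intergenic peaks it was 10.5% (1569 of 14975 peaks) within 5 kb of a TSS, 11.9% (11.6 to 12.3%) at 5 to 20 kb, 10.4% at 20 to 50 kb, 9.27% at 50 to 100 kb, 6.98% at 100 to 200 kb and 5.29% (4.94 to 5.66%) beyond 200 kb. LTR elements took a like course, with 7.29% within 5 kb, 11.5% at 5 to 20 kb, 10.9% at 20 to 50 kb and 6.85% beyond 200 kb. LINEs varied less beyond 5 kb, with 5.11% (4.77 to 5.47%) within 5 kb, 9.61% at 20 to 50 kb and 7.26% beyond 200 kb, so that there were 2.05 SINE-centred peaks per LINE-centred peak within 5 kb and 0.728 beyond 200 kb. B1 stood at 3.70% (3.49 to 3.93%) at 5 to 20 kb and at 1.16% (1.00 to 1.34%) beyond 200 kb, and ID at 0.518% and 0.162%. MIR stood between 0.728% (0.603 to 0.878%) beyond 200 kb and 1.19% (1.05 to 1.34%) at 50 to 100 kb.

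**Figure D4:**
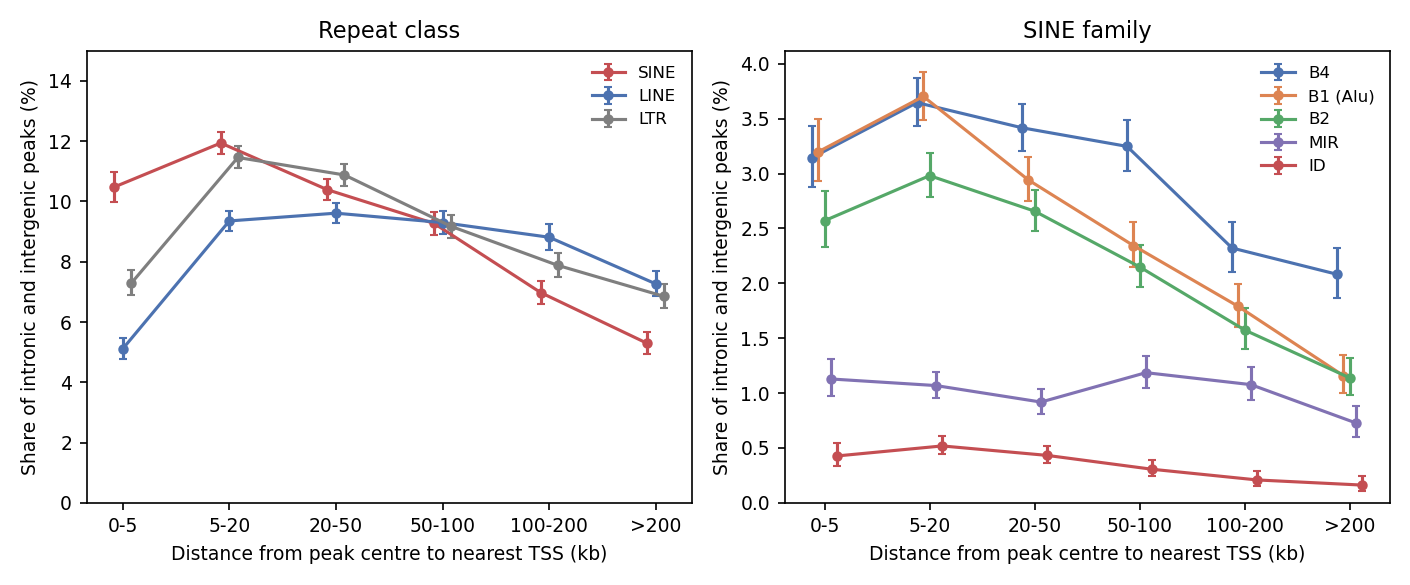
Share of intronic and intergenic peaks (vertical axes, %) by distance from the peak's centre to the nearest TSS in kb (horizontal axes), for SINE, LINE and LTR elements on the left and for the SINE families on the right, with 95% Wilson intervals as bars. The SINE share is 11.9% at 5 to 20 kb and 5.29% beyond 200 kb, and the MIR share stays between 0.728 and 1.19%.

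Chromosomes differed in the same measure. Chromosome 12 had the highest share of intronic and intergenic peaks centred in a SINE (14.1%, 13.0 to 15.3%), followed by chromosome 10 (12.5%, 11.8 to 13.2%), X (12.1%, 10.3 to 14.0%) and chromosome 5 (11.4%). Chromosome 2 had the lowest (7.0%, 6.47 to 7.57%), with chromosome 11 at 7.10% and chromosome 16 at 7.43%. The share tended to be lower on chromosomes whose peaks lay farther from genes (Spearman rho -0.506 with the median TSS distance of all their intronic and intergenic peaks, over 21 chromosomes), a description of points that share libraries and calling. On X, 28 of the 143 SINE-centred peaks with a matched gene name a gene that GRCr8 places on chromosome 7, Dhh and Dnajc22 among them. Those X loci of rn5 had a share of 19.4% (13.8 to 26.7%, 28 of 144 peaks), and the loci that both assemblies place on X had 115 of 1043 peaks (9.27 to 13.1%).

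**Figure D5:**
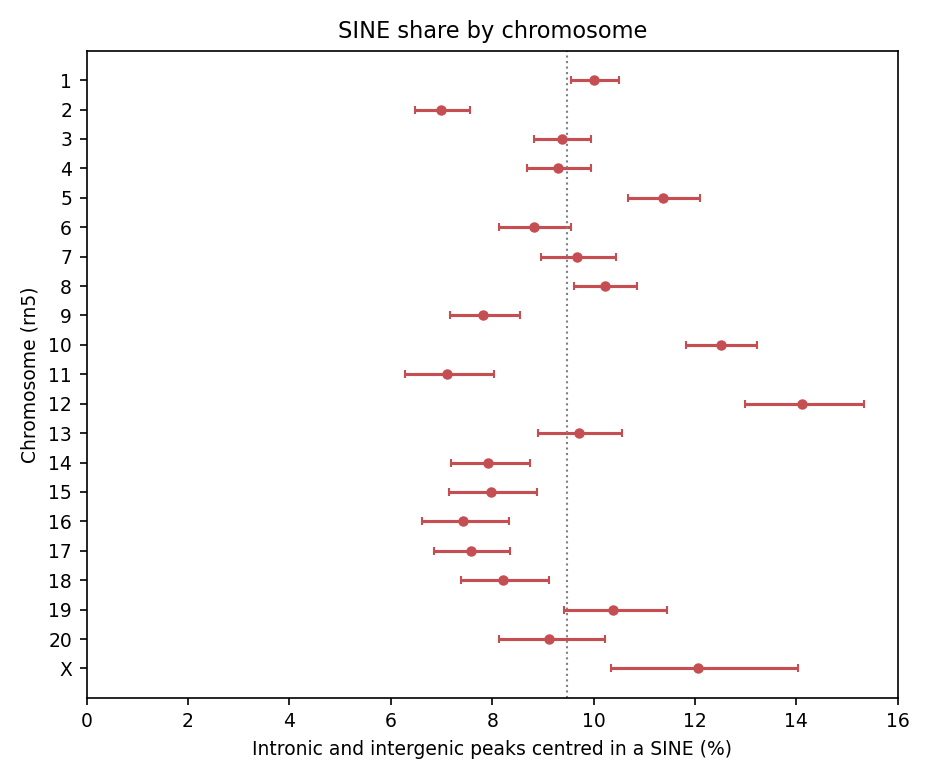
Share of intronic and intergenic peaks centred in a SINE (horizontal axis, %) for each of the 21 chromosomes of rn5 (vertical axis), with 95% Wilson intervals as bars and a dotted line at the share over all chromosomes (9.48%). Chromosomes 12, 10 and X stand highest at 14.1, 12.5 and 12.1%, and chromosome 2 lowest at 7.0%.

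SINE-centred peaks had neighbours about as often as other peaks. Another peak lay within 1000 bp of 66.0% of them (65.1 to 66.8%), against 61.8% (60.9 to 62.7%) of LINE-centred, 63.2% (62.3 to 64.1%) of LTR-centred and 64.8% of all peaks outside SINEs. When peaks within 1000 bp were joined, 10463 of the 72623 regions held at least 1 SINE-centred peak, 1111 held 2 or more, and the most in 1 region was 6. Of the members, 19.4% were narrower than 1000 bp and shared a region with a peak of at least 1000 bp, against 15.9% of peaks outside SINEs.

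The 15 highest-scoring SINE-centred peaks were domains of 6111 to 23324 bp. The first lay on chromosome 8 (rn5 chr8:106620361-106641876, 21515 bp, score 1582) in intergenic sequence 18680 bp from Faim, an inhibitor of Fas-induced cell death, with a B1_Rn element at its centre. It ranked 43rd among all peaks of the list. The second, of 22619 bp and a score of 1465 on chromosome 1, was centred in a PB1D10 element 42317 bp from the microRNA gene Mir3597-3. The third (chr14:106914059-106932121, 18062 bp, score 1389, ID_B1) covered the TSS of Otx1, a homeobox gene of the forebrain and inner ear.

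A pair of domains lay upstream of Pax2, a regulator of kidney, eye and hindbrain formation. One (chr1:271853949-271877273, 23324 bp, the widest of all SINE-centred peaks) was centred 81655 bp away in a MIRb element, with a score of 1241, and the other (chr1:271908075-271927822, 19747 bp) 29318 bp away in a B2_Rn2 element, with a score of 1176. ID_Rn2 elements lay at the centre of a 9531 bp peak 36553 bp from RT1-T18, a class Ib gene of the rat MHC, with a score of 1148, and of a 6111 bp peak 90484 bp from Mir148a, with 615.9. Fcgr1a, the high-affinity IgG receptor of macrophages, was the nearest gene of a 14476 bp peak 69401 bp away (B3, 1065), and Fgf5, a growth factor best known from the hair cycle, of a 17026 bp peak 69001 bp away (B2_Rat3, 994). The nearest gene is the authors' assignment, and at such distances a domain may cover or belong to another gene.

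Other leading peaks lay in or near named genes. RSINE1 marked the centre of a 9748 bp peak in intron 1 of Vax2, an eye-patterning homeobox gene (score 742.2), and B3 that of an 8916 bp peak in intron 3 of 14 of Esrp1, an epithelial splicing regulator (606.4). Zfp281, a zinc finger gene of pluripotent cells (B1_Mur4, 38172 bp away, 542.1), Pou4f2, a retinal ganglion cell factor (ID_Rn1, 7081 bp away, 535.5), and Bnc1, a zinc finger gene of keratinocytes and germ cells (B1F, 5285 bp away, 526.8), followed. The 15th was a 6982 bp peak in intron 3 of 3 of Cdkn2a, the INK4a and ARF cell cycle inhibitor locus, centred in a B1_Mur2 element (chr5:111784876-111791858, score 501.9).

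By construction no member is centred in the authors' promoter-TSS class, exon or UTR, since only intronic and intergenic centres carry repeat names, and a member meets a promoter only by its width or just beyond that class. A peak was counted as reaching a TSS where its edge came within 1000 bp of it. This was so for 197 SINE-centred peaks (1.66%, interval 1.45 to 1.91%), against 0.551% (0.427 to 0.710%) of LINE-centred, 0.417% (0.316 to 0.551%) of LTR-centred and 3.59% (3.46 to 3.71%) of intronic and intergenic peaks without a repeat, and 4.81% over the whole list, promoter-centred peaks included. ID (3.49%, 2.16 to 5.60%) and MIR (3.05%, 2.24 to 4.14%) had the highest shares among the 5 large families, and B2 the lowest (0.973%, 0.674 to 1.40%). Among frequent names, MIR3 reached a TSS in 10 of 144 peaks and ID_B1 in 37 of 1177, against 6 of 1062 for B4A. Names of the B1 family varied, with 12 of 200 for PB1D7, 6 of 173 for PB1D9 and 1 of 393 for B1_Rn.

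The 197 peaks reached 194 genes, and for 63 of these (32.5%) no peak outside SINEs did. The like share for other classes of peaks was not computed, so this count is a description only. After Otx1, Esrp1 and Bnc1, the highest scores belonged to Dhh (8983 bp, 436.7), the signal of Schwann cells to the nerve sheath, whose peak was centred in intron 1 of 2 in a B1_Mur1 element (rn5 chrX:115082017-115091000). Cacng6, a calcium channel subunit (ID_B1, 417.7), Dnajc22, a heat shock protein partner (ID_B1, 388.2), and Npas1, a bHLH-PAS factor of forebrain interneurons (B1_Mur4, 7271 bp, 335.8), came next. Etv4, an ETS factor (PB1D10, 311.7), Fgf4, a growth factor of the early embryo and limb (ID_B1, 299.7), and the carbonic anhydrase gene Car14 (ID_B1, 299.5) followed. Chrna5, a nicotinic receptor subunit (MIR, 291.9), Cabp1, a neuronal calcium sensor (MIRb, 279.3), Trim67, a neuronal ubiquitin ligase (B2_Rat1, 240.1), Dll3, a Notch ligand of somite formation (ID_Rn1, 234.7), and the serotonin receptor gene Htr5b (ID_B1, 226.3) completed the 15. ID_B1 lay at the centre of 6 of these 15 peaks, of 37 of the 197 that reached a TSS and of 9.93% of all SINE-centred peaks.

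The peak contained the TSS itself in 28 cases (0.236%, interval 0.163 to 0.341%), against 4 LINE-centred peaks (0.0373%), 5 LTR-centred peaks (0.0426%), 0.571% of all intronic and intergenic peaks and 1.15% of the whole list. Their widths ran from 380 to 18062 bp with a median of 3482 bp, and their scores from 9.49 to 1389 with a median of 139.7. Of the 28, 19 were centred in an intron, 15 of them in the first. The first intron is the one nearest to a gene's start, and the like count for other peaks that contain a TSS was not computed. B4 had 8, B1 had 7, B2 had 6, MIR had 5 and ID had 2, the last at Dll3 (5577 bp) and at Pitx3 (3649 bp, intron 1 of 3), a homeobox gene of dopamine neurons and the lens that was outside the rule for named genes.

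SINE-centred peaks were spread over many genes. Of the 10647 gene symbols that the list names, 5256 (49.4%) were nearest to at least 1 SINE-centred peak, 2603 of them to just 1 and 70 to 10 or more. Tbx3, a T-box factor of limb and heart, had the most, with 34 of its 223 peaks centred in a SINE (15.2%, interval 11.1 to 20.6%), spread between 17198 and 670342 bp from its TSS. Rybp, a subunit of a PRC1 complex, had 30 of 181 (16.6%, 11.9 to 22.7%), Nrg2, a neuregulin, 21 of 100, and Nog, a BMP antagonist, 20 of 108 (18.5%). Macf1, a cytoskeletal linker (18 of 88), Tmem132e, a membrane protein gene (18 of 114), Tbx5, a factor of heart and forelimb (18 of 83), Snx11, a sorting nexin (17 of 72), and Foxe3, a lens factor (16 of 179), came next. None of the SINE-centred peaks of these 9 genes reached the TSS, and their highest score was 81.9, at Tmem132e. Chromosome 12, which carries Tbx3 and Tbx5, had a share of 13.8% without their peaks.

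Gene lists for the nerve and for the mark were read against all named genes, of which 49.4% were nearest to a SINE-centred peak and 1.82% had one that reached the TSS. Of the listed genes that peaks name, a SINE-centred peak was assigned to 17 of 27 genes of injury and of repair Schwann cells, 13 of 18 myelin and mature Schwann cell genes, 11 of 16 genes of the neural crest and of Schwann cell precursors and 20 of 23 developmental transcription factors. The counts were 8 of 13 for fibroblast and perineurial markers, 9 of 12 for endothelial and mural, 8 of 12 for leukocyte and mast cell, and 8 of 15 for adipocyte and skeletal muscle markers. Neuronal function genes had 13 of 22, imprinted genes 9 of 17, PRC1, PRC2 and H3K27 demethylase genes 9 of 15, and RNA polymerase III machinery genes, whose enzyme transcribes SINEs, 4 of 9. A gene with more peaks has more chances to hold one, and the share of the lists' peaks that were centred in a SINE ran from 6.59% (28 of 425, neuronal genes) to 16.4% (9 of 55, RNA polymerase III genes) around the 9.15% of the whole list.

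Over all lists, 129 of 199 named genes (64.8%) were nearest to a SINE-centred peak. A SINE-centred peak reached the TSS of 2 of the 199 (1.01%, near the 1.82% of all named genes), Dhh in the myelin list and Cbx7, a PRC1 subunit, whose 4014 bp peak upstream of the gene (chr7:121144254-121148268, score 183.4) was centred in a B1_Mur4 element 2540 bp from the TSS. Peaks of any kind reached the TSS of 141 of the 199 (70.9%), against 38.4% of all named genes. By list these were 17 of 27 injury, 14 of 18 myelin, 14 of 16 neural crest, 8 of 13 fibroblast, 6 of 12 endothelial, 7 of 12 leukocyte and 12 of 15 adipocyte and muscle genes. They were 20 of 22 neuronal, 23 of 23 developmental, 15 of 17 imprinted and 5 of 15 Polycomb and demethylase genes, and 0 of 9 RNA polymerase III genes.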

How the data were processed

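H3K27me3 was measured by ChIP with micrococcal nuclease digestion, per the labels. The submitters' processing notes name CASAVA 1.8.2, Bowtie and HOMER. Per the file headers, the deposited list is a combined H3K27me3 sham peak list annotated by HOMER against rn5. Peak calling settings, use of the input and treatment of reads that align to several places were not given in the sources used here. A score for each peak was deposited by the authors without a stated scale, and widths, coordinates and TSS distances in bp were deposited by the authors too. Depth per library is unknown.

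Members, families, names and position classes were read from the annotation of each peak's centre. Shares have 95% Wilson intervals (SciPy 1.17.1), and quartiles describe spread. No test was run, since the list has no value per library. Code was tested on simulated data. Named genes were those of the 15 highest-scoring SINE-centred peaks, the 3 highest of each family with at least 50 peaks, the 15 highest that reach within 1000 bp of a TSS, the 10 genes nearest to most members, and up to 3 members per list that SINE-centred peaks reach. Of the 3 highest in MIR, that at Fbxo2 scored 341.6. A gene that this rule names is not reported here. Members and the 12 lists were chosen with earlier results of these data known. Genes were matched to GRCr8 by identifier or symbol for chromosomes, and the promoter sequences and their CG counts also come from GRCr8. The alternatives changed the minimum score, the minimum width, the joining of peaks, the chromosomes, the denominator and the reach.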

Additional observations from a re-analysis of the deposited data

How the results depend on the processing

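Keeping scores at or above the median of the list gave a SINE share of 8.65%, a median score of 8.46, width of 356 bp and TSS distance of 22805 bp, 3.01% reaching a TSS, 9.35% of the smallest width, and family shares of 31.0% for B4 and 4.82% for ID. The top 25% of scores gave 7.72%, 19.6, 781 bp, 19489 bp, 5.54% and 0%, with B4 at 30.3%, B2 at 23.1%, MIR at 11.99%, ID at 6.02% and Deu at 0.319%. Leaving out the smallest width gave 8.44%, 8.04, 332 bp, 23674 bp and 2.87%, with B2 at 23.3%, MIR at 11.97%, ID at 4.91% and Deu at 0.200%. Joining peaks within 1000 bp gave 8.49%, 4.13, 199 bp, 30868 bp, 3.03% and 43.8%. A joined region kept the annotation, score and TSS distance of its highest-scoring peak and took the width of the whole region. Its class is thus that of this peak's centre, not of the region's own centre. Reach was counted from that peak's distance and the region's width, so the 3.03% does not measure how near the region's edges come to a TSS. The SINE share was 32.7% of peaks centred in SINE, LINE, LTR or DNA repeats and, in a setting added after seeing the data, 9.48% of intronic and intergenic peaks. The share reaching a TSS was 0.236% with no margin, 14.0% with 5000 bp and 0% in the promoter-TSS class.

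The other 35 values, among them the intergenic share and every value without X, stayed within their 95% intervals. ID_Rn1 and ID_Rn2 had a median score above that of SINE-centred peaks outside these and B2_Rat1 to B2_Rat3 in each of these peak sets, the top 25% included (22.1 against 19.6), where B2_Rat1 to B2_Rat3 (15.5) did not. The subfamilies were singled out after their values were seen, and these sets are parts or joins of 1 list. Their agreement is thus no independent support. Joining peaks left 65 of the 138 ID_Rn1 and ID_Rn2 peaks, since each region kept only its highest-scoring peak. These 65 are thus selected by score, and their median width of 1923 bp is that of joined regions. No paired analysis was possible because the list holds no value per library, and for the same reason no replicate could be left out. Depth is unknown, which limits what a single narrow peak shows.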

Other observations

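Near Rybp a single SINE family held most of the SINE-centred peaks. The gene was picked after its values were seen, and no test was made. Of the 30 SINE-centred peaks nearest to Rybp, 20 were centred in B4 elements (66.7%, 95% Wilson interval 48.8 to 80.8%), against 32.7% of all SINE-centred peaks. They lay 4993 to 278389 bp away, under 4 names, with scores of 3.09 to 65.6 (median 4.95) and widths of up to 2788 bp. Near Tbx3 the families were mixed, with 13 of 34 in B1 and 12 in B4.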
